A study of Mus musculus with 3 samples.

Results

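The genes described here are the mouse heat shock proteins, their J-domain co-chaperones and the BAG family, measured by RNA sequencing in 3 hearts. Members were chosen by symbol alone: every gene of the table whose symbol begins with Hspa, Hspb, Hspd, Hspe, Hsph or Hsp90, with Dnaja, Dnajb or Dnajc followed by a digit, or with Bag followed by a digit. The rule found 79 of the 18038 genes in the table. They comprise 3 Hsp90 genes, 11 Hsp70 genes, 3 Hsp110 genes, the Hsp60 and Hsp10 pair, 7 small heat shock proteins, 44 J protein genes and 6 BAG genes. A further 3 genes carry a family prefix without being a chaperone of that family: Hspbp1, an exchange factor of Hsp70, Hspb11, a subunit of intraflagellar transport, and Hspbap1, which was named for binding Hspb1.

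All 3 samples were whole hearts of wild-type C57BL/6J mice, without treatment in the labels, taken 9 days after birth. They form 1 group with replicate numbers 1 to 3, so no condition can be compared with another. Nothing in the labels states that the hearts came from separate animals or litters, so each p-value rests only on the spread between these 3 samples. Part of that spread may be technical. Comparisons are therefore between genes within a heart and of the spread between hearts.

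Hsp70 chaperones bind short hydrophobic stretches of unfolded proteins and release them in a cycle driven by ATP. J proteins bring the client and start ATP hydrolysis, while Hsp110, BAG and other exchange factors replace ADP by ATP and reset the cycle. Hsp90 acts later, on clients that are nearly folded, Hsp60 with its lid Hsp10 encloses proteins inside mitochondria, and small heat shock proteins hold unfolding proteins in solution without ATP. In heart muscle, chaperones of the Z-disc, among them Bag3, Hspb8, Hspb6, Hspb7 and Dnajb6, tend the sarcomere, and inherited defects of several of them cause muscle or heart disease in humans.

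Totals were 17766501, 18643408 and 18768094 counts in hearts 1, 2 and 3, and 3 counts corresponded to 0.107 to 0.115 TPM for a typical gene, a limit that covers counting error only. Levels are given in TPM, transcripts per 1000000 transcripts, which are corrected for gene length, as mean ± SD over n = 3 hearts. A gene was called detected at 1 CPM, its share of the counts scaled like TPM but without gene length, or more in every heart, which held for 12958 genes of the table (71.8%). All 10 cardiomyocyte markers were detected, led by Myl2 and Actc1. In bulk tissue, fewer cells of a type and less RNA per cell cannot be told apart. Heart 1 stood apart in markers of other tissues: its 12 airway and lung markers summed to 2468 TPM, against 2.80 and 10.7 TPM in hearts 2 and 3, and its 5 brown fat markers to 475 TPM, against 219 and 345 TPM. The airway and lung sum of heart 1 was mostly Scgb1a1 (1202 TPM), Scgb3a1 (758 TPM) and Scgb3a2 (411 TPM). The surfactant and cilium genes of that list lay at 3.38 TPM or less there. Of the 12 markers 0 were detected in every heart, so these genes were not tested for spread.

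Promoters of some heat-inducible and endoplasmic reticulum (ER) members are shown first. Their elements are known from the heat shock and ER stress responses by which several results below are grouped. Hspb6, also shown, is not on the list of heat-inducible genes used below. Sequences are RefSeq promoter windows of build GRCm38.p6, 5′ to 3′ on the strand of the gene, in lower case with the matched motif letters in capitals. The windows reached from 250 bases before to 50 bases after the start and were found for 63 of the 79 members. This start can differ from that of the table, whose gene spans include the stretches printed for Hspa1b, Hspb1, Hspb6 and Dnajc3. The stretches printed for Hspe1 with Hspd1 and for Hspa5 overlap exons annotated in GENCODE. The heat shock element, the site of the heat shock factor Hsf1, was searched on both strands as alternating units, either 3 units (GAANNTTCNNGAA or TTCNNGAANNTTC) or 2 units (GAANNTTC or TTCNNGAA), the shorter form being contained in the longer. Hspd1 and Hspe1 are neighbours on chromosome 1 and are read away from each other. They share 1 stretch between the starts used for their windows, which the table's span of Hspd1 also covers. This stretch holds 3 overlapping 2-unit matches in a row and is printed in the direction of Hspe1, at chr1:55088053-55088082 (+). The near-identical Hspa1a at chr17:34972233-34972280 (-) and Hspa1b at chr17:34959315-34959362 (-) hold 1 match each, Hspb1 at chr5:135887782-135887849 (+) holds 2, and Hspb6 at chr7:30553161-30553208 (+) holds 1.
Hspe1 and Hspd1: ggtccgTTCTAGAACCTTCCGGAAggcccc
Hspa1a: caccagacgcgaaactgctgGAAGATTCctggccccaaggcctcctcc
Hspa1b: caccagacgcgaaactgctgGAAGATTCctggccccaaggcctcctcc
Hspb1: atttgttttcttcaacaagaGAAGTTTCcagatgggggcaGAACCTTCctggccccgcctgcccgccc
Hspb6: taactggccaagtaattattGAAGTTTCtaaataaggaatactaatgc

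The 3-unit element was found in 4 of the 63 members with a window (6.35%), namely Hspd1, Hspe1, Hsph1 and Dnajb6, and in 0.662% of all 27025 genes with a window (0.603% of 32851 windows, as some genes have several). The 2-unit form was found in 16 of the 63 members (25.4%) and in 17.0% of all genes (15.1% of windows). Neither form was found for the heat-inducible members Hspa8, Dnajb1, Hsp90aa1, Hsp90ab1, Hspa4 and Hspa4l, for lack of a match or of a window. A match is a description of letters in this window and not evidence of binding. Hspa1a and Hspa1b were identical at 247 of the 250 bases before their starts (98.8%), and their counts were fractional, so a read that fits both may have been divided between them. The table's span of Hspa1b also covers Hspa1a. Their separate levels are uncertain for these reasons.

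The ER stress element (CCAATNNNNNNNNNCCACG or its reverse complement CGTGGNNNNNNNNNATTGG) was found in 3 of the 63 members (4.76%) and in 0.137% of all genes (0.119% of windows). These members were Hspa5 at chr2:34772020-34772049 (+), Hsp90b1 at chr10:86705513-86705571 (-) and Dnajc3 at chr14:118937807-118937865 (+). Hsp90b1 holds a further match upstream of the one printed. The element was not found for the ER stress members Dnajb9, Dnajb11, Hspa13 and Dnajc10, for lack of a match or of a window.
Hspa5: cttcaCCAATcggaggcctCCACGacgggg
Hsp90b1: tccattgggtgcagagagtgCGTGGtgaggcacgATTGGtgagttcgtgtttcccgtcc
Dnajc3: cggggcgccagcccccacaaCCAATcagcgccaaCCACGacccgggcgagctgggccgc

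Of the 79 members, 71 were detected (89.9%). Summed over all members, the level was 9813, 10209 and 10216 TPM in hearts 1, 2 and 3, close to 1% of all transcripts (0.981%, 1.02% and 1.02%). A few genes carried most of it: the highest 4, Hspa8, Hspb7, Hsp90ab1 and Hspb6, held 46.5% ± 0.653 of the members' sum, and the highest 10 held 66.3% ± 0.621 (SD, n = 3). Of the detected members, 21 lay above 100 TPM, 41 between 10 and 100 TPM and 9 below 10 TPM. By family, small heat shock proteins held 27.2% ± 0.768 of the sum, Hsp70 genes 23.9% ± 0.846, J proteins 19.9% ± 0.234 and Hsp90 genes 15.9% ± 0.604. By compartment of the protein, genes of the cytosol and nucleus held 74.2% ± 0.545, mitochondrial genes 15.3% ± 0.499 and ER genes 9.21% ± 0.233.

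**Figure D1:**
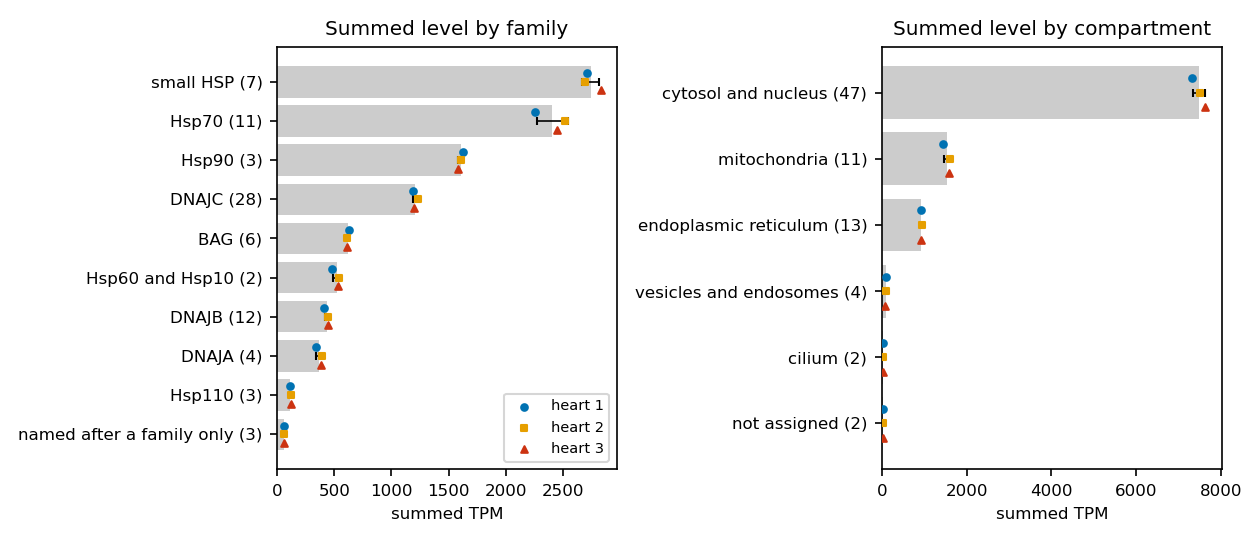
Summed level (TPM) of the members by family (left) and by compartment of the protein (right), with the number of members in parentheses. Bars are means over 3 hearts, error bars are SD and points are single hearts; small heat shock proteins and Hsp70 genes have the highest family sums, and the cytosol and nucleus hold 74.2% of the members' sum.

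Among Hsp70 genes 1 dominated. Hspa8, the constitutive Hsc70 (chromosome 9, 40801273 to 40805200 in the table's GRCm38.p6 positions), had 1406, 1585 and 1552 TPM in hearts 1, 2 and 3 (1514 ± 95.5) and was the 77th gene of the table by mean level. It held 92.2% of the summed level of the 8 cytosolic Hsp70 genes. The heat-inducible pair lay at the other end: Hspa1a had 3.07, 3.02 and 4.10 TPM, and Hspa1b had 3.23, 2.92 and 3.61 TPM. Per length, Hspa8 exceeded Hspa1a in every heart, at 8.81 on the log2 scale (SE 0.132, 95% interval 8.44 to 9.18; quasi-likelihood test of edgeR, adjusted p = 4.32e-06). With Hspa1a and Hspa1b added together, which removes the doubt over divided reads between them, the log2 ratio of the pair over Hspa8 was -7.84 ± 0.206 (SD, n = 3).

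Hspa2 and Hspa1l, Hsp70 genes best known from the testis, were both detected. Hspa2 had 10.2, 11.2 and 16.6 TPM in hearts 1, 2 and 3, and the log2 ratio of Hspa8 over Hspa2 was 6.92 (SE 0.180, adjusted p = 1.90e-05, edgeR). Hspa1l had 4.13, 4.74 and 5.37 TPM, above both heat-inducible genes in each heart. Of the distant relatives, Hspa12b, known from endothelium, had 37.7, 46.3 and 41.9 TPM, and Hspa12a had 20.5, 24.4 and 21.4 TPM. The log2 ratio of Hspa12b over Hspa12a was 0.92 (SE 0.0551, adjusted p = 0.000156, edgeR) and became -0.07 without the correction for gene length. Hspa14, a part of a complex at the ribosome, had 40.2, 38.8 and 39.3 TPM and exceeded Hspa13, an Hsp70-like ATPase of the ER, at 13.8, 16.7 and 15.0 TPM (log2 ratio 1.38, SE 0.0814, adjusted p = 0.000156, edgeR).

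Each organelle has its own main Hsp70, and these followed Hspa8 in level. Hspa9 or mortalin, the Hsp70 of the mitochondrial matrix that pulls in imported proteins, had 407, 458 and 431 TPM. Hspa5 or BiP, the Hsp70 of the ER lumen, had 309, 326 and 319.6 TPM. Hspa8 exceeded both in every heart, with log2 ratios of 1.81 over Hspa9 (SE 0.0491) and 2.25 over Hspa5 (SE 0.0532; adjusted p = 1.93e-05 and 1.90e-05, edgeR).

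The 3 Hsp90 genes were all above 100 TPM and were led by the constitutive form. Hsp90ab1 had 1185, 1129 and 1119 TPM in hearts 1, 2 and 3, and was the 107th gene of the table by mean level. Hsp90aa1, the stress-inducible cytosolic form, had 154, 176 and 175 TPM. The groups of values lay far apart, and Hsp90ab1 over Hsp90aa1 was 2.77 on the log2 scale (SE 0.0829, 95% interval 2.53 to 3.00, adjusted p = 2.22e-05, edgeR). Hsp90b1 or Grp94, the ER form, had 289, 299 and 283 TPM, next to its ER partner Hspa5. The log2 ratio of Hsp90b1 over Hspa5 was -0.13 (95% interval -0.27 to 0.01) and missed the threshold (adjusted p = 0.0635, edgeR). With the longest coding transcript as gene length it became 0.37, so the order of these 2 genes depends on the transcript assumed.

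**Figure D2:**
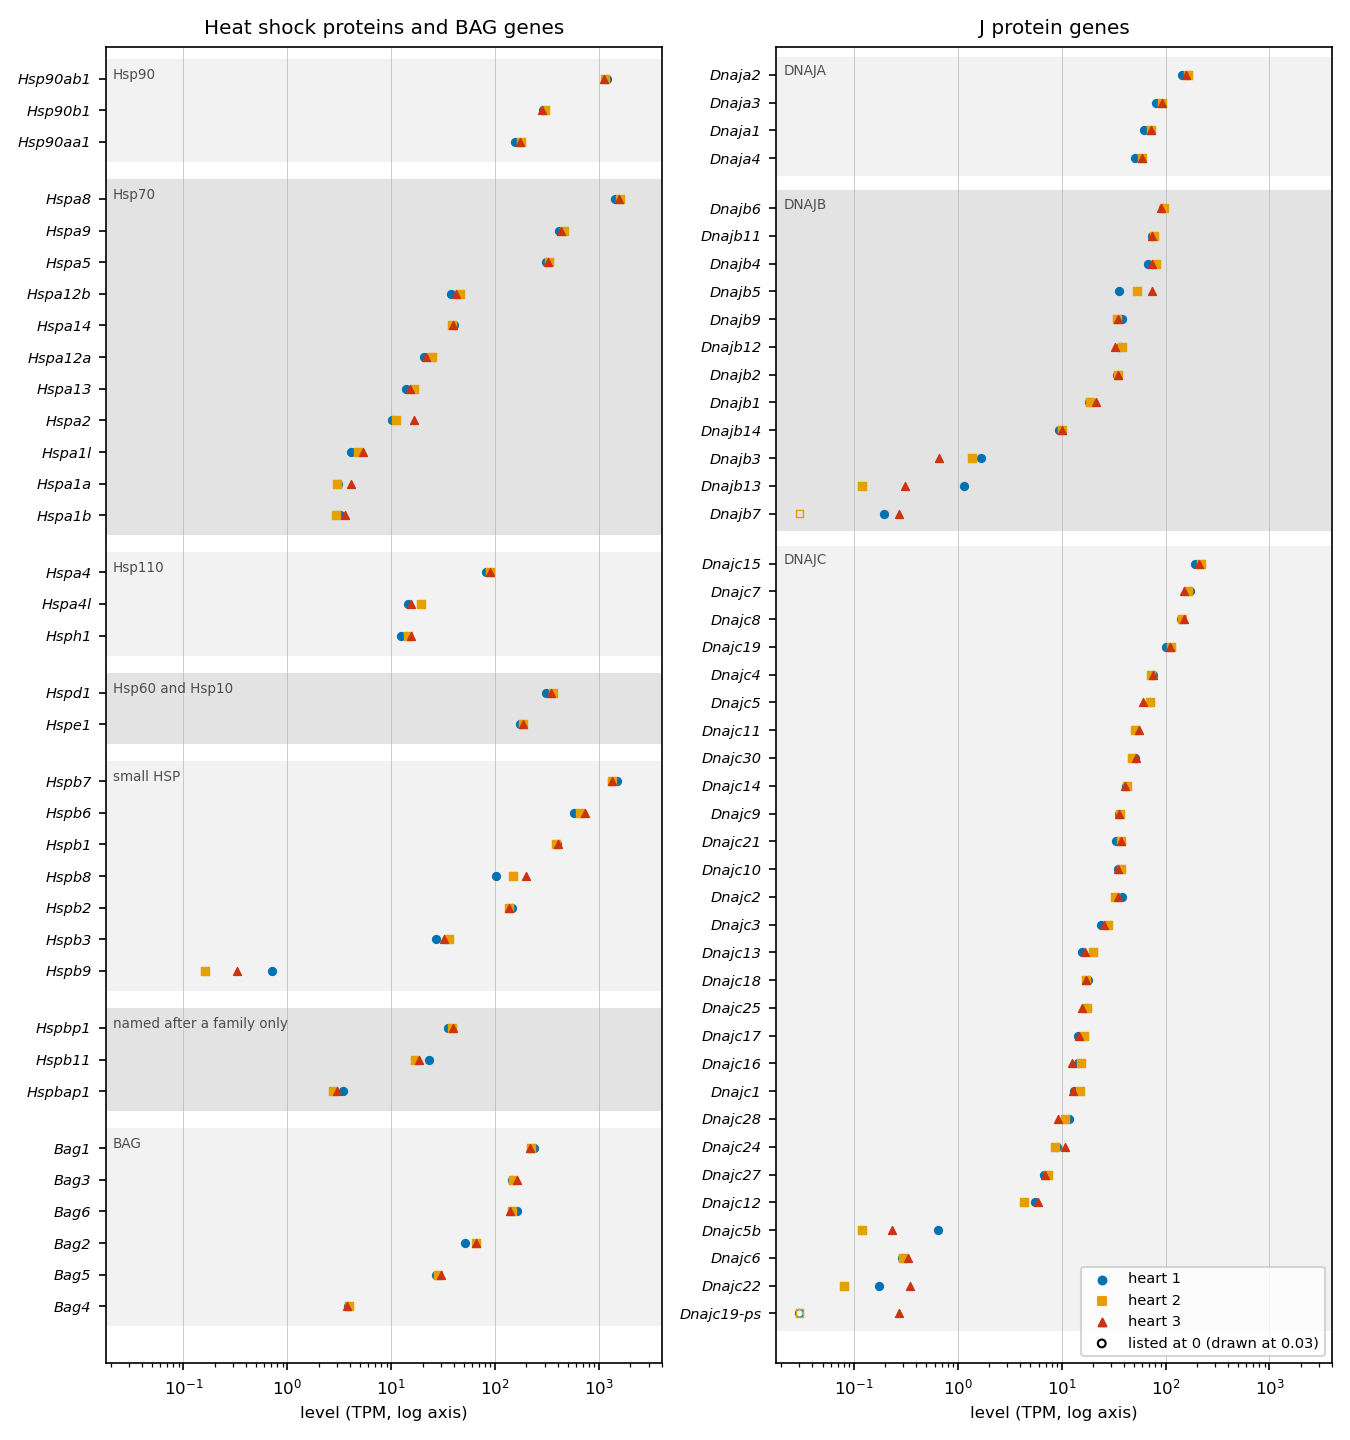
Level (TPM, log axis) of all 79 members in each of 3 hearts, with heat shock proteins and BAG genes on the left and J protein genes on the right, sorted by mean within each family. Points are single hearts and open points are hearts listed at 0 TPM; Hspa8, Hspb7 and Hsp90ab1 lie highest, with means of 1145 to 1514 TPM, and several J proteins lie under 1 TPM.

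Small heat shock proteins had the highest family sum, at 2743 ± 74.0 TPM. Hspb7 or cvHsp, a cardiovascular small heat shock protein (chromosome 4, 141420779 to 141425310), had 1473, 1333 and 1329 TPM in hearts 1, 2 and 3. This was 50.3% of the summed level of the 7 family genes found by the name rule, which leaves out Cryab. Hspb6 or Hsp20, a phosphoprotein of heart and smooth muscle, had 574, 650.3 and 732 TPM, and Hspb1, called Hsp25 in mice, had 393, 387 and 402 TPM. These 3 genes did not overlap in any heart: Hspb6 over Hspb7 had a log2 ratio of -1.09 (SE 0.116, adjusted p = 0.00110, edgeR), and Hspb1 over Hspb6 had -0.72 (SE 0.0801, adjusted p = 0.00122). Cryab, the alpha B crystallin that belongs to this family but not to the name rule, had 1411, 1496 and 1563 TPM. It exceeded Hspb1 with a log2 ratio of 1.92 (SE 0.0499, adjusted p = 1.90e-05, edgeR). Cryab lay above Hspb7 in hearts 2 and 3 and below it in heart 1, and this pair was not tested.

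Lower in the family stood the Bag3 partner Hspb8 and the pair Hspb2 and Hspb3, whose proteins bind each other. Hspb8 had 101, 147 and 196 TPM in hearts 1, 2 and 3. Hspb2 had 146, 135 and 135 TPM, with fractional counts in all 3 hearts, and its span in the table overlaps that of Cryab. The order of Hspb8 and Hspb2 was not the same in all hearts, with Hspb8 lower in heart 1 and higher in hearts 2 and 3 (log2 ratio of Hspb8 over Hspb2 0.05, 95% interval -0.59 to 0.68, adjusted p = 0.851, edgeR). Hspb7 exceeded Hspb8 by 3.27 on the log2 scale (SE 0.257, adjusted p = 0.000365) and Hspb1 exceeded it by 1.46 (SE 0.201, adjusted p = 0.00246, edgeR), the second lost without the length correction, at 0.38. Hspb3 had 26.9, 36.3 and 32.3 TPM, below Hspb2, with a log2 ratio of Hspb2 over Hspb3 of 2.13 (SE 0.129, adjusted p = 0.000159, edgeR). Hspb9, a testis form, was below the detection minimum with 4, 1 and 2 counts.

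Mitochondrial chaperones were the second compartment by level, at 1544 ± 83.5 TPM. Hspd1, the Hsp60 barrel, had 307, 359 and 348 TPM in hearts 1, 2 and 3, and Hspe1, its Hsp10 lid, had 174, 186 and 186 TPM. Both were lowest in heart 1. Hspd1 exceeded Hspe1 with a log2 ratio of 0.89 (SE 0.0527, adjusted p = 0.000156, edgeR), and Hspa9 exceeded Hspd1 with a log2 ratio of 0.36 (95% interval 0.22 to 0.50, adjusted p = 0.00251, edgeR). Without heart 2, Hspa9 over Hspd1 was again 0.36 but missed the threshold (adjusted p = 0.0991). The Hspd1 and Hspe1 spans overlap at their starts in the table, and without a stated strand setting the reads of that overlap cannot be assigned to either.

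The J proteins of the mitochondrion summed to 593 ± 25.5 TPM, above the mitochondrial Hsp70 in every heart. The sums were 563, 607 and 607 TPM for the 8 J proteins, against 407, 458 and 431 TPM for Hspa9, a log2 ratio of 0.46 ± 0.0450 (SD, n = 3). Dnajc15 and Dnajc19, relatives of the J protein of the import motor, led with 191, 221 and 210.1 TPM and with 102, 113 and 111 TPM. The log2 ratio of Dnajc19 over Dnajc15 was -0.93 (SE 0.0491, adjusted p = 0.000113, edgeR) with the lengths implied by the authors' FPKM and 0.57 with the longest coding transcripts. The implied lengths were 561 bases for Dnajc15 and 640 for Dnajc19, and the longest coding transcripts had 6193 and 2499. Their order, the compartment's sum and the place of the J protein sum above Hspa9 therefore rest on the transcript length. In counts, without a length correction, the 8 J proteins together lay below Hspa9 in every heart. Dnaja3 or Tid1 had 80.2, 91.8 and 93.2 TPM, and Dnajc4, Dnajc30 and Dnajc11, the last a partner of the cristae complex MICOS, had means of 49.8 to 75.0 TPM. Of these, Dnajc4 had 75.9, 72.5 and 76.5 TPM in hearts 1, 2 and 3. Dnajc28 was the lowest detected one at 10.6 ± 1.22 TPM. The copy Dnajc19-ps, annotated as a pseudogene, had 0 counts in hearts 1 and 2 and about 1 in heart 3.

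In the ER, J proteins and Hsp70 genes were close in sum. The 10 ER J proteins summed to 303, 315 and 296 TPM in hearts 1, 2 and 3, against 322, 343 and 335 TPM for Hspa5 and Hspa13, a log2 ratio of -0.13 ± 0.0447 (SD, n = 3). All 10 were detected. Dnajb11 or ERdj3, a soluble partner of Hspa5, led with 73.9, 77.5 and 74.6 TPM. Dnajb9 or ERdj4, a gene of the unfolded protein response, had 38.4, 34.1 and 35.0 TPM, lower than Dnajb11 in every heart (log2 ratio of Dnajb11 over Dnajb9 1.07, SE 0.0698, adjusted p = 0.000189, edgeR). Dnajc14 and Dnajb12, anchored in the ER membrane, had 41.8, 42.9 and 40.7 TPM and 36.1, 38.3 and 32.6 TPM. Dnajc10 or ERdj5, a disulfide reductase, had 34.6, 36.9 and 35.1 TPM and Dnajc3 or p58IPK, whose promoter is printed above, had 23.7, 27.9 and 25.3 TPM. Dnajc3 over Dnajc10 had a log2 ratio of -0.47 (SE 0.0552, adjusted p = 0.00141, edgeR), which lost its call without the length correction, at -0.11. The other 4, Dnajc18, Dnajc16, Dnajc1 and Dnajb14, lay between 9.82 and 17.4 TPM.

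Cytosolic J proteins were many and none was dominant. The 19 genes, of which 17 were detected, summed to 965, 1031 and 1032 TPM in hearts 1, 2 and 3, against 1525, 1716 and 1685 TPM for the cytosolic Hsp70 genes, a log2 ratio of -0.70 ± 0.0380 (SD, n = 3). The highest, Dnajc7, which links Hsp70 to Hsp90, held 16.0% of the sum with 171, 163 and 151 TPM. Next came Dnaja2, the leading class A J protein, with 144, 165 and 158 TPM, and the spliceosome protein Dnajc8 with 142, 143 and 149 TPM. Dnajc7 and Dnajc8 did not differ past the threshold (log2 ratio 0.16, 95% interval -0.03 to 0.35, adjusted p = 0.0839, edgeR).

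Class A genes were ordered the same way in every heart. Dnaja1 had 61.5, 72.9 and 72.8 TPM and Dnaja4, known from heart and skeletal muscle, had 50.8, 59.3 and 59.1 TPM. Dnaja1 lay below Dnaja2 with a log2 ratio of -1.17 (SE 0.0517, adjusted p = 6.49e-05, edgeR), and the mitochondrial Dnaja3 lay below Dnaja2 with -0.82 (SE 0.0508, adjusted p = 0.000167). Dnaja4 over Dnaja1 was -0.29 (SE 0.0467, adjusted p = 0.00404, edgeR), but 0.44 with the longest coding transcripts. Without heart 2 the ratio was again -0.29 but missed the threshold (adjusted p = 0.192).

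Among class B genes the stress-inducible Dnajb1 was the lowest of the detected cytosolic ones. Dnajb1, the Hsp40 that rises on heat shock, had 18.4, 18.8 and 21.4 TPM. Dnajb6, a Z-disc J protein that restrains aggregation, had 94.3, 97.7 and 90.8 TPM, and Dnajb4, a muscle J protein, had 68.5, 80.4 and 74.3 TPM. Both exceeded Dnajb1, with log2 ratios of 2.27 (SE 0.0899, adjusted p = 5.41e-05) and 1.93 (SE 0.0815, adjusted p = 6.43e-05, edgeR). Dnajb1 also lay below Dnaja1, with a log2 ratio of -1.82 (SE 0.0699, adjusted p = 5.30e-05, edgeR). Dnajb2, which binds ubiquitin and is known from neurons and muscle, had 33.8, 34.6 and 35.1 TPM, below Dnajb6 (log2 ratio of Dnajb6 over Dnajb2 1.45, SE 0.0639, adjusted p = 6.49e-05, edgeR). Dnajb5 had 36.0, 53.0 and 73.8 TPM and approached Dnajb4 in heart 3 only (log2 ratio of Dnajb5 over Dnajb4 -0.51, 95% interval -1.07 to 0.05, adjusted p = 0.0700, edgeR).

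The remaining cytosolic and nuclear J proteins serve single machines rather than general folding. Dnajc9, a histone chaperone, had 35.9, 36.4 and 36.0 TPM, with the smallest coefficient of variation of any detected member (0.846%). Dnajc21, of ribosome maturation, and Dnajc2, at the ribosome exit, had means of 35.8 and 35.1 TPM. The spliceosome gene Dnajc17 had 15.2 ± 0.958 TPM, the diphthamide gene Dnajc24 had 9.48 ± 1.08 TPM, the GTPase Dnajc27 had 7.05 ± 0.296 TPM, and Dnajc12, a partner of aromatic amino acid hydroxylases, had 5.26 ± 0.788 TPM.

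For vesicles, Dnajc5 and Dnajc6 were at opposite ends. Dnajc5, the cysteine string protein of secretory vesicles, had 70.4, 71.2 and 60.8 TPM, and the endosomal Dnajc13 had 15.8, 20.1 and 16.9 TPM. Dnajc6, the neuronal auxilin that uncoats clathrin vesicles, had 13, 14 and 16 counts, below the detection minimum, and Dnajc5b had 5, 1 and 2 counts. Dnajc5 exceeded Dnajc6 with a log2 ratio of 7.77 (SE 0.105, adjusted p = 4.32e-06, edgeR). The other undetected J proteins were Dnajb3 with 14, 12 and 6 counts, Dnajb7 with 2, 0 and 3, Dnajc22 with 2, 1 and 5 and Dnajb13 with 11, 1 and 3. Dnajb13, a protein of the radial spokes of motile cilia, was thus highest in heart 1, which also held the airway markers, and their part in its level was not tested. Hspb11 had 22.9, 17.0 and 18.6 TPM, and Dnajc25, a membrane J protein, had 17.7, 17.7 and 15.7 TPM.

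Among the families that hold exchange factors of Hsp70, the BAG genes summed higher than the Hsp110 genes. All 6 BAG genes were counted, although only Bag1 and Bag5 were assigned the exchange role here and the rest other roles. BAG genes, Hsp110 genes and Hspbp1 together summed to 772, 772 and 774 TPM in hearts 1, 2 and 3, against 1525, 1716 and 1685 TPM for the cytosolic Hsp70 genes, a log2 ratio of -1.09 ± 0.0907 (SD, n = 3). The BAG genes gave 618 ± 8.46 TPM of this and the Hsp110 genes 117 ± 6.94 TPM. Among the Hsp110 genes Hspa4 had 82.2, 88.3 and 89.0 TPM, Hspa4l had 14.6, 19.2 and 15.4 TPM and the heat-inducible Hsph1 had 12.3, 14.5 and 15.6 TPM. Hspa4 exceeded Hspa4l (log2 ratio 2.42, SE 0.113, adjusted p = 7.53e-05), and Hsph1 lay below Hspa4 (log2 ratio -2.62, SE 0.0760, adjusted p = 2.19e-05, edgeR). Hspbp1 had 35.2, 38.6 and 39.4 TPM, and Hspbap1, which is not part of these sums, had 3.44, 2.74 and 2.98 TPM.

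Bag1 was the highest BAG gene with 237, 220.5 and 215 TPM in hearts 1, 2 and 3. Bag3, which hands clients of Hsp70 and Hspb8 to autophagy at the Z-disc (chromosome 7, 128523583 to 128546981), had 146, 149 and 162 TPM, and Bag6, of membrane protein quality control, had 162, 145 and 139 TPM. Both lay below Bag1 per length, with log2 ratios of -0.56 (SE 0.0748, adjusted p = 0.00235) and -0.60 (SE 0.0507, adjusted p = 0.000476, edgeR), and both ratios reversed without the length correction, to 0.44 and 0.95. Bag3 over its partner Hspb8 was 0.54, 0.02 and -0.28 on the log2 scale in hearts 1, 2 and 3, so neither was higher in all hearts (log2 ratio 0.09, 95% interval -0.40 to 0.58, adjusted p = 0.648, edgeR). Bag2, an inhibitor of the ubiquitin ligase Stub1, had 50.9, 64.8 and 65.8 TPM, and Bag5 had 27.2, 28.3 and 29.8 TPM (log2 ratio of Bag5 over Bag2 -1.08, SE 0.0784, adjusted p = 0.000276, edgeR). Bag4, the silencer of death domains, was lowest with 3.83, 3.92 and 3.77 TPM, and Bag3 over Bag4 had a log2 ratio of 5.31 (SE 0.0734, adjusted p = 4.32e-06, edgeR).

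**Figure D3:**
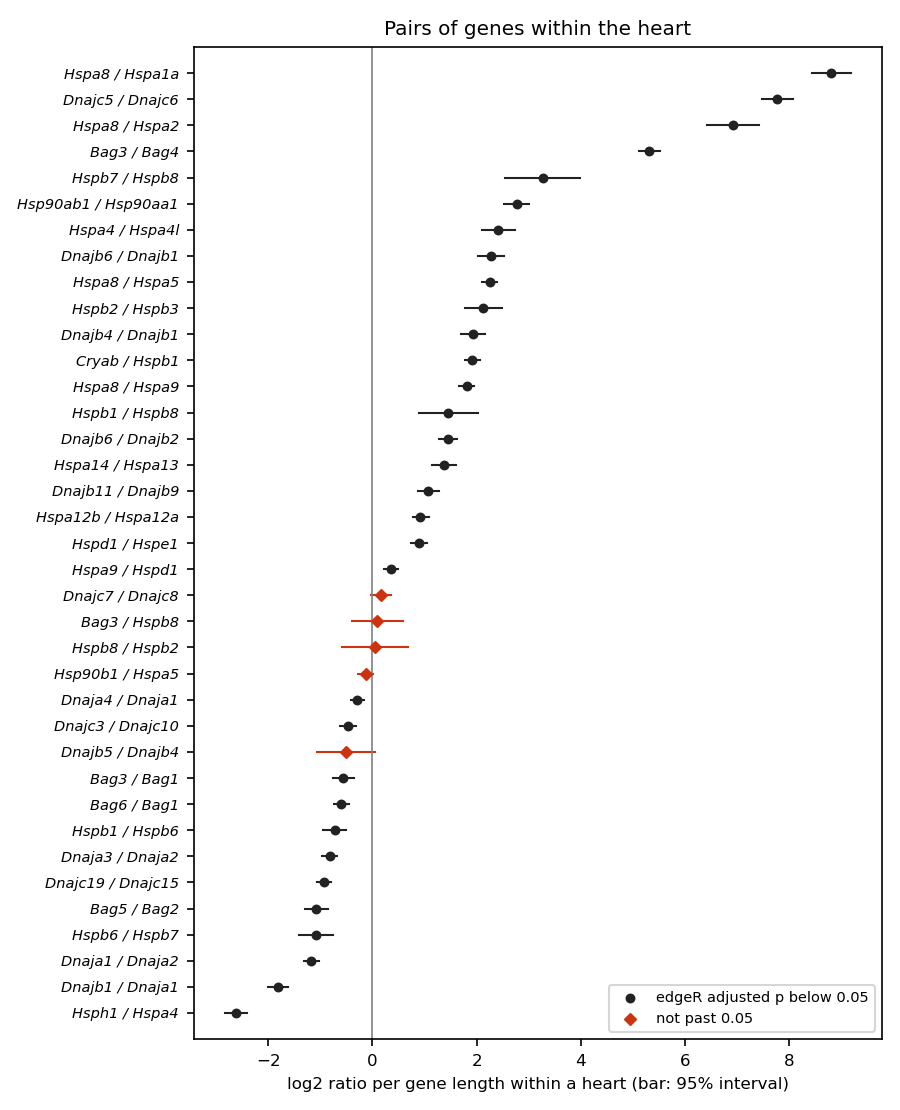
Log2 ratio of the first gene over the second, per gene length within a heart, for 37 pairs with 95% intervals from edgeR over 3 hearts. In 32 pairs the ratio passed the threshold, and the 5 pairs drawn as diamonds did not.

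Across all 37 pairs, 32 passed an adjusted p of 0.05. The gene named first was higher in 20 of them and lower in 12. The pairs share genes and hearts and are not independent. The 5 that did not pass were Hsp90b1 over Hspa5, Hspb8 over Hspb2, Dnajb5 over Dnajb4, Dnajc7 over Dnajc8 and Bag3 over Hspb8, and 3 of these hold Hspb8 or Dnajb5.

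Hspb8 and Dnajb5 were the members that spread between hearts. A gene's counts were tested for more spread than genes of like level, by the deviance of edgeR's negative binomial fit, and 216 of the 12958 detected genes (1.67%) passed an adjusted p of 0.05. Of the 71 detected members, 2 passed (2.82%), a share read against that background. Hspb8 (chromosome 5, 116406815 to 116422864; the table gives the opposite strand to GENCODE) had 1578, 2374 and 3308 counts in hearts 1, 2 and 3 (adjusted p = 0.000888), and Dnajb5 (chromosome 4, 42949827 to 42959417) had 757, 1154 and 1674 counts (adjusted p = 0.000473). Both were highest in heart 3 and lowest in heart 1, with TPM in heart 3 over heart 1 at log2 ratios of 0.96 for Hspb8 and 1.04 for Dnajb5. Both calls rested on hearts 1 and 3: without heart 1 the adjusted p was 0.163 for Hspb8 and 0.0778 for Dnajb5, and without heart 3 it was 0.396 and 0.503, so that 0 members were called in either case, with 3 at an unadjusted p under 0.05 in each. The share of all genes called was then 0.764% and 0.587%, and it was 0.857% without heart 2, where both members passed. Both also passed with DESeq2 size factors (1.65% of all genes called), without the filter on low counts (1.47%) and with a common dispersion (2.04%). The smallest adjusted p among the other members was 0.334, for Hspa2, and 68 of the 71 lay at 0.5 or above.

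**Figure D4:**
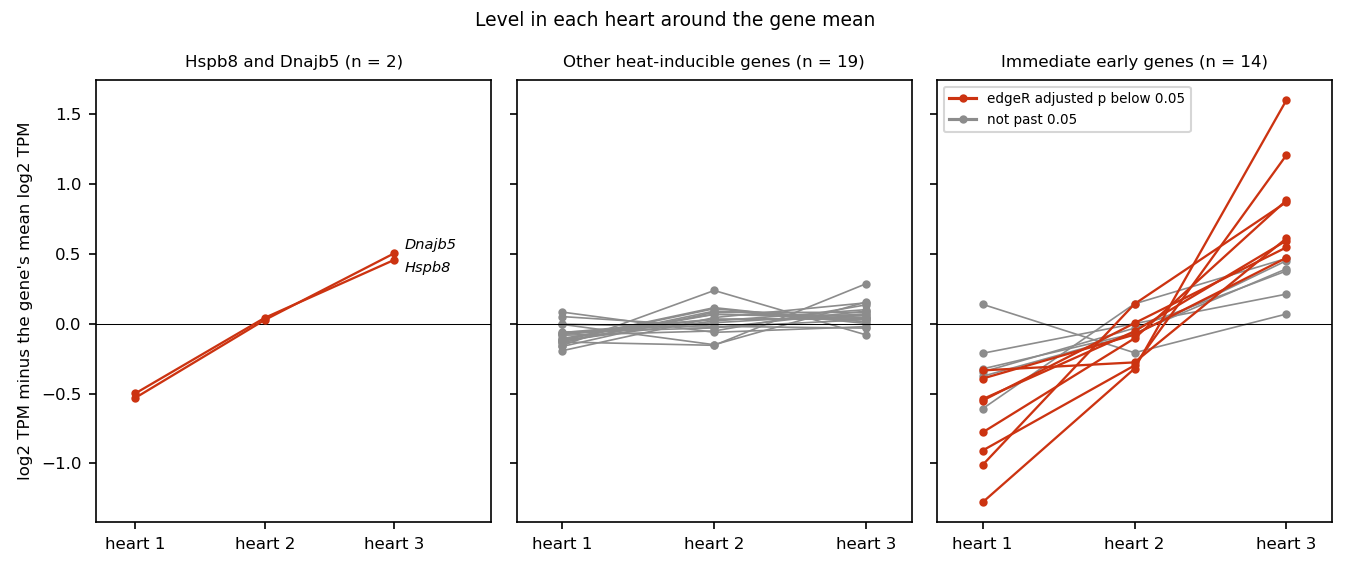
Level of Hspb8 and Dnajb5 (left), of the 19 heat-inducible genes other than Hspb8 (middle) and of 14 immediate early genes (right) in each heart. Values are log2 TPM minus the gene's own mean, and Dnajb5 is not on the heat-inducible list. Each line joins 1 gene's values in 3 separate hearts, which have no order; Hspb8, Dnajb5 and 8 immediate early genes, drawn in red, passed the test of spread and were highest in heart 3.

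Hspb8 is on the list of heat-inducible genes used here, and Dnajb5 is not. Of 20 heat-inducible genes (16 of them members, all detected), 1 passed, Hspb8, and the list summed to 5809.7, 6197 and 6279 TPM in hearts 1, 2 and 3. Hspa8, Cryab and Hsp90ab1 led this sum, with means of 1514, 1490 and 1145 TPM, and Hspa8 and Hsp90ab1 are the constitutive forms described above. The element printed above for Hspb1 and Hspb6 also occurs once in the Hspb8 window, 3 to 10 bases after the start within the transcribed part. The same letters occur in the Bag3 window, and Bag3, Hspb1 and Hspb6 did not pass the test of spread. For Dnajb5 the element was not found, for lack of a match or of a window. Hspa1a, Hspa1b, Dnajb1 and Hsph1, whose RNA is known for strong induction by heat, lay between 3.25 and 19.6 TPM on average and did not pass. Of 18 ER stress genes, 7 of them members, 0 passed edgeR's test, and 0 had an unadjusted p under 0.05. They summed to 1878, 1858 and 1883 TPM.

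Some genes of other lists passed the test as well, and part of them were, like Hspb8 and Dnajb5, highest in heart 3. Of 14 detected immediate early genes, transcription factors and feedback genes that cells switch on within minutes of a stimulus, 8 passed, all highest in heart 3: Fos, Jun, Junb, Egr1, Nr4a1, Dusp1, Btg2 and Klf2. Nr4a1 had 8.19, 15.9 and 60.3 TPM and Dusp1 had 36.6, 81.4 and 135 TPM in hearts 1, 2 and 3, and the list summed to 344, 489 and 786 TPM. Among 6 smooth muscle and pericyte markers, Acta2 (303, 670.5 and 918 TPM) and Tagln passed and the other 4 did not, and the list, led by Acta2, summed to 737, 1311 and 1581 TPM. Of 3 detected skeletal muscle markers 1 passed, the skeletal actin Acta1, with 24.7, 74.2 and 129.6 TPM, also highest in heart 3. The other detected markers of that list did not pass: Tnni2 was highest in heart 1 and Myh8 in heart 2. Called markers with another order were Myh7, with 48.8, 25.5 and 14.8 TPM, the erythroid genes Hbb-bt and Alas2, lowest in heart 3 and highest in heart 2, the atrial gene Bmp10, also highest in heart 2, and the brown fat genes Ucp1, Adipoq and Plin1, highest in heart 1. Of the 216 variable genes, 84 (38.9%) were highest in heart 3 and lowest in heart 1, and 84 had the opposite order. The part of these genes in the levels of Hspb8 and Dnajb5 was not tested.

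**Figure D5:**
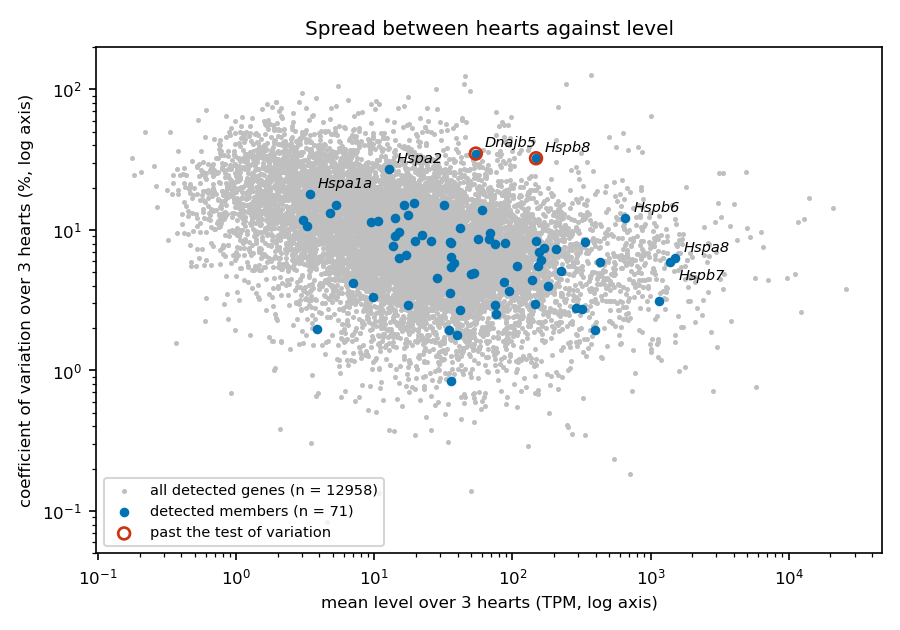
Coefficient of variation over 3 hearts (%, log axis) against mean level (TPM, log axis) for 12958 detected genes, with the 71 detected members in blue. Hspb8 and Dnajb5, ringed, have the highest values among the members, whose median is 7.0%.

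Most members differed little between hearts. The coefficient of variation of TPM ranged from 0.846% to 34.9% over the 71 detected members, with a median of 7.0%, against 8.83% over all detected genes, whose median level was lower (19.1 TPM, against 41.8 TPM for the members). Small shifts tended to leave heart 1 lowest: 41 of the 71 members (57.7%) had their lowest TPM there, against 32.6% of all detected genes. With TMM-scaled counts the shares were 43 of 71 (60.6%), against 38.7%. The median log2 ratio of heart 3 over heart 1 was 0.08 for the members and -0.06 for all detected genes, and no test was made of these shares. Hspb6, with 574 TPM in heart 1 and 732 TPM in heart 3, and Hspa8, with 1406 TPM in heart 1 and 1585 TPM in heart 2, were among those lowest in heart 1, while Hspb7, Hsp90ab1 and Bag1 were highest there.

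Partners of the chaperones that lie outside the name rule were measured alongside. Of 26 such genes 25 were detected, and Cryaa, the lens crystallin, had 0 counts in every heart. After Cryab the highest were Fkbp4, an immunophilin of Hsp90 (212 ± 9.09 TPM), Trap1, the mitochondrial Hsp90 (173 ± 6.04 TPM), and Cdc37, which brings kinases to Hsp90 (151 ± 6.09 TPM). Hsf1, the heat shock factor, had 35.0, 36.0 and 37.7 TPM. One partner passed the test of spread: Fkbp5, a glucocorticoid-induced immunophilin of Hsp90, had 13.5, 7.64 and 6.36 TPM in hearts 1, 2 and 3 (adjusted p = 0.0201, edgeR), highest in heart 1, the opposite of Hspb8 and Dnajb5.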

How the data were processed

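RNA of 3 day 9 hearts was sequenced from DNBSEQ libraries, per the labels' protocols. The authors deposited 1 table with a count and an FPKM per gene and heart, per the file headers. About 87.5% of the deposited counts were whole within 0.005, and the deposited values, treated like expected counts from divided reads, were rounded for the tests. The submitters' processing notes list HISAT, an aligner, and the build GRCm38.p6. Not given in the sources used here are the counting tool, the annotation and whether strand was used. The table's strand differs from GENCODE for 10 of the 79 members. One line without a gene ID was left out, and the authors' mean columns were not used.

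TPM is the deposited FPKM rescaled to 1000000 per heart. Gene lengths were those implied by count and FPKM. Spread between hearts was tested with edgeR 4.0.16 (R 4.3.3) after TMM scaling, with a trended dispersion, on genes at 1 CPM or more in every heart. Ratios within a heart were tested with edgeR's quasi-likelihood test, with heart as a block. Adjusted p-values are Benjamini-Hochberg, over all genes tested or over the 37 pairs. Both tests were tested on simulated data. Each heart was counted as 1 sample. Chi-square per degree of freedom between hearts was 9.70 to 23.7, more than counting error alone gives, which cannot show whether the hearts came from separate animals. In each family and compartment, values per heart are given for the 3 highest members, for members of tested pairs and for members past the test of spread. Of the chaperone partners the highest 4 and those past the test are named, and of other lists mainly those past the test. Alternatives were DESeq2 1.42.0 size factors, no filter, a common dispersion, other gene lengths, no block and leaving out each heart. Members and lists were chosen with earlier results of these data known, and compartments were assigned from textbook knowledge after the table was read.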

Additional observations from a re-analysis of the deposited data

How the results depend on the processing

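Members called variable ranged from 0 to 2 when 1 heart was left out (0 without heart 1 or heart 3) and were 2 with DESeq2 size factors, without the filter and with a common dispersion. The count of pairs past the threshold was 32 with heart as a block and 32 without the block, which changed no call. It was 33 without length correction, 34 with the longest coding transcripts, 32 with DESeq2 size factors and 31 to 34 without 1 heart. The sign of some ratios changed with gene length. Without length correction, Hspa12b over Hspa12a was -0.07, Bag3 over Bag1 was 0.44 and Bag6 over Bag1 was 0.95. With the longest coding transcripts, Hsp90b1 over Hspa5 was 0.37, Dnaja4 over Dnaja1 was 0.44, Dnajc19 over Dnajc15 was 0.57 and Dnajc7 over Dnajc8, not called, was -0.09. Other calls were lost without length correction, Hspb1 over Hspb8 at 0.38 and Dnajc3 over Dnajc10 at -0.11, while Hspb8 over Hspb2 (1.28), Dnajc7 over Dnajc8 (0.64), Bag3 over Hspb8 (0.63) and Dnajb5 over Dnajb4 (-0.59) passed. Dnajb5 over Dnajb4 also passed with the longest coding transcripts (-1.01) and without heart 2 or heart 3, and Dnajc7 over Dnajc8 passed without heart 3. Shares of summed CPM, which carry no length correction, were 73.1% for cytosol and nucleus, 13.1% for mitochondria, 11.7% for the ER, 1.93% for vesicles and endosomes, 0.134% for genes not assigned and 0.0640% for the cilium. Detected members numbered 72 at 0.5 CPM and 71 at 1 TPM. Sums were described by mean and SD and not tested. The 8 undetected members had 16 counts or fewer in each heart.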
